A study of Mus musculus with 394 samples.

Results

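*Calb1*, *Calb2*, *Tacr3*, *Cck*, *Vip* and *Grp* are 6 genes used to mark midbrain dopamine (mDA) neurons of the ventral tegmental area (VTA) and of the dorsal tier of the substantia nigra pars compacta (SNc). They were taken by symbol from both count tables, and all 6 were found among 55487 genes of the full-length table and 48526 genes of the UMI table. Ribosomes were pulled down from dissected midbrain by an HA tag on the large-subunit protein eL22 (RiboTag), and the RNA of this immunoprecipitate (IP) was sequenced beside the Input, a share of the same kind of lysate. The full-length libraries, made with a stranded total RNA kit, came from Cre+ mice (DAT IRES-Cre/wt;RiboTag+/-) and numbered 3 IP and 3 Input for each of SNc, VTA and substantia nigra pars reticulata (SNr). The 3′ libraries with unique molecular identifiers (UMIs) numbered 4 from Cre+ mice and 6 from Cre- mice (DAT wt/wt;RiboTag+/-) for each region and fraction. Together these are 18 and 60 of the 394 libraries of the series.

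All of these mice were 10 to 14 months old, both sexes were used, and both genotypes carry 1 RiboTag allele, so the genotypes differ in the Cre inserted at the dopamine transporter gene. That gene drives Cre wherever the transporter is expressed, and ribosomes of Cre- mice carry no tag, so a Cre- IP measures RNA carried through the pull-down without it. The 3 regions were separated by hand with knife cuts, and SNr is a region that holds many mDA dendrites and few mDA cell bodies. The study concludes that those few cell bodies outweighed dendritic ribosomes in its SNr IPs. The labels do not say which mouse gave which library, so p-values here measure the spread between libraries, which may be in part technical.

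mDA neurons are not a single cell type. Neurons of the VTA and the dorsal tier tend to carry the calcium-binding protein calbindin and several neuropeptides, while neurons of the ventral tier of the SNc, marked by *Aldh1a1*, *Sox6* and *Anxa1*, are the ones most easily lost in models of Parkinson's disease. *Calb1* and *Calb2* encode calbindin and calretinin, cytosolic proteins that bind calcium through EF-hand domains. *Tacr3* encodes the receptor for neurokinin B, and *Cck*, *Vip* and *Grp* encode the peptides cholecystokinin, vasoactive intestinal peptide and gastrin-releasing peptide, which neurons store in dense-core granules and which act on G protein-coupled receptors.

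The RefSeq promoter table (GRCm38.p6) held entries for 3 of the 6 genes. The 100 bases before the annotated start of each are shown, and capitals mark TATAAA. Among the 6 genes, *Tacr3* and *Vip* fell most from VTA to SNr IPs and *Cck* least. The *Vip* fall was not called (edgeR adjusted p = 0.0517), and *Vip* passed the filter only through the VTA IPs. A link between these letters and the falls was not tested.
*Tacr3* (chr3:134828907-134829006, plus strand): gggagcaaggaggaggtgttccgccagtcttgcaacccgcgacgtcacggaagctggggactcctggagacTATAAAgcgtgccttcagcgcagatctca
*Vip* (chr10:5639118-5639217, plus strand): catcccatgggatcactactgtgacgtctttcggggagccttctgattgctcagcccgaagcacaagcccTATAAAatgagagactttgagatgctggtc
*Cck* (chr9:121495695-121495794, minus strand): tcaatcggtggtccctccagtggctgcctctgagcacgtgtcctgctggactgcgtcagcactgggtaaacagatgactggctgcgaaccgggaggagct
TATAAA stands 29 bases before the start in *Tacr3* and 30 bases before it in *Vip*, and the letters do not occur in the *Cck* window. Upstream of the printed bases, *Vip* holds them 157 and 147 bases before its start as well. In *Cck* the stretch tatttaag lies across the annotated start, where the printed bases end. Over the 300-base window of the table, read on both strands, 13.6% of 32851 promoters hold TATAAA. The cAMP response element TGACGTCA is in 1.79%, the Nr4a2 response element AAAGGTCA in 1.51% and the bicoid-type homeodomain motif TAATCC in 7.06% of them, and none of these exact strings was found in the 3 windows. Variants were not searched. The *Vip* window holds tgacgtct and the *Tacr3* window cgacgtca, which differ from TGACGTCA in the last and the first base. A match is a description of letters and not a bound site.

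In the IPs of Cre+ mice, all 6 genes had their highest mean level in VTA, an intermediate mean in SNc and the lowest in SNr, as counts of the gene scaled to a common library total (CPM) in the full-length libraries. The step from VTA to SNr was 10.8-fold for *Calb1* (log2 fold change −3.44, SE 0.19, edgeR adjusted p = 1.66e-09), 7.11-fold for *Calb2*, 25.3-fold for *Tacr3* and 3.98-fold for *Cck*. *Vip* and *Grp* were found mainly in VTA IPs, at low counts. Full-length libraries held 3059148 to 15762443 counts, with SNr IPs at 4018290 to 5153095 and the other IPs at 4738834 to 11363737. In bulk tissue, fewer cells of a type and less RNA per cell cannot be told apart, so a lower level in SNr can be either.

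The dissected regions were checked against their defining markers. *Th*, which encodes the enzyme that starts dopamine synthesis, stood at 1284 to 2484 CPM in SNc IPs, 3472 to 3891 in VTA IPs and 1787 to 2638 in SNr IPs, against 19.1 to 220 CPM across the 9 Inputs. *Slc6a3*, the dopamine transporter, stood at 2195 to 3104 CPM across the 9 IPs. Markers of other cells were lowest in VTA IPs. The summed CPM of 5 oligodendrocyte markers was 354 to 552 in VTA IPs against 1590 to 2656 in SNc and 1701 to 2122 in SNr IPs, and that of 5 GABAergic neuron markers was 279 to 352 against 1019 to 1536 and 804 to 1113. For 5 astrocyte markers the sums were 730 to 863 in VTA, 1025 to 1500 in SNc and 1815 to 3066 in SNr IPs, for 4 microglial markers 13.9 to 16.7, 55.1 to 114 and 98.0 to 142, and for 4 endothelial markers 9.12 to 31.6, 27.9 to 74.8 and 123 to 129. Every gene of these 5 lists had counts in each region. These sums differ between the regions as well, and their part in the differences of the 6 genes was not tested. The labels give 1 batch value to all 18 full-length libraries and another to all 60 UMI libraries, and say nothing of plates, wells or dates within it.

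*Calb1* (chromosome 4, 15881264 to 15908064, plus strand, gene span in GENCODE vM21 on GRCm38) showed the largest contrast between VTA and the rest among the calcium buffers. Its CPM in the 3 VTA IPs was 747, 690 and 770, in the SNc IPs 199, 230 and 186, and in the SNr IPs 67.5, 88.5 and 50.0. The 3 regions did not overlap. The Inputs of the 3 regions did overlap, at 60.5, 54.7 and 75.2 CPM in VTA, 52.7, 48.1 and 56.2 in SNc, and 52.9, 64.2 and 63.0 in SNr. IPs therefore stood far above Inputs in VTA (log2 fold change 3.18, SE 0.11, edgeR adjusted p = 6.05e-12) and in SNc (1.66, SE 0.13, edgeR adjusted p = 3.17e-06). In SNr the IPs and Inputs overlapped, and the difference was −0.17 with SE 0.22 (edgeR adjusted p = 0.602). *Calb1* was 3.60-fold higher in VTA than in SNc IPs (log2 1.85, SE 0.18, edgeR adjusted p = 3.73e-06) and 3.01-fold lower in SNr than in SNc IPs (log2 −1.59, SE 0.18, edgeR adjusted p = 3.98e-05).

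*Calb2* (chromosome 8, 110137502 to 110168210, minus strand) was at 849, 771 and 800 CPM in VTA IPs, 470, 405 and 497 in SNc IPs and 143, 116 and 85.9 in SNr IPs. The regions again did not overlap, but VTA and SNc lay closer together than for *Calb1*. Unlike *Calb1*, *Calb2* followed the same order in the Inputs, with 277, 225 and 261 CPM in VTA, 132, 115 and 155 in SNc and 29.3, 18.3 and 29.1 in SNr. It was higher in IPs than in Inputs in all 3 regions, by log2 1.47 in SNc (edgeR adjusted p = 1.13e-05), 1.33 in VTA (edgeR adjusted p = 4.17e-09) and 1.81 in SNr (SE 0.24, edgeR adjusted p = 0.00035). Between IPs, *Calb2* was higher in VTA than in SNc (log2 0.82, SE 0.17, edgeR adjusted p = 0.00414) and lower in SNr than in SNc (log2 −2.01, SE 0.18, edgeR adjusted p = 1.88e-06) and than in VTA (log2 −2.83, SE 0.18, edgeR adjusted p = 7.93e-09).

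**Figure D1:**
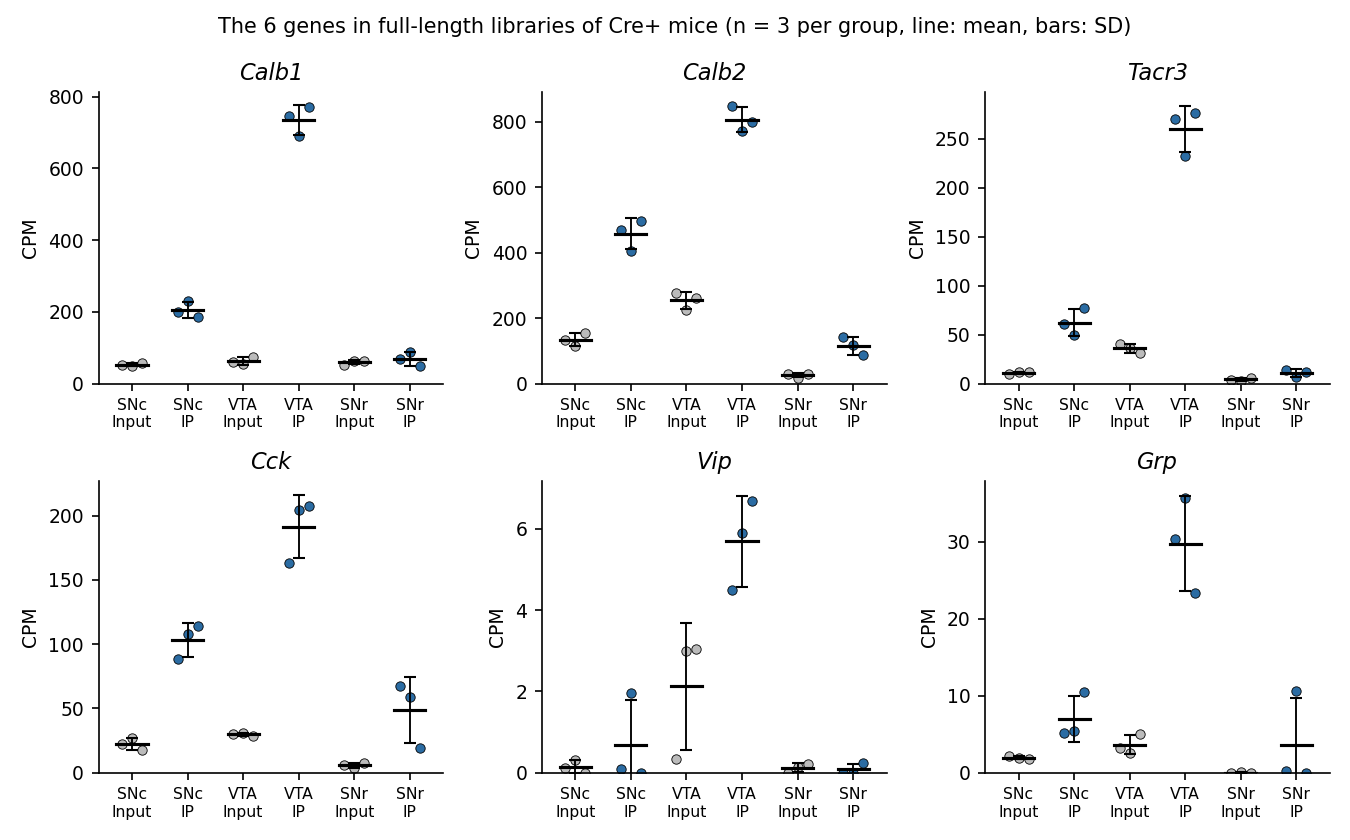
Level of each gene in CPM (y axis, from 0, own scale per gene) in the full-length Input (grey) and IP (blue) libraries of SNc, VTA and SNr, with a point per library, the mean as a line and the SD as bars (n = 3, lower bars end at 0). VTA IPs are highest for all 6 genes, *Calb1* Inputs lie between 48.1 and 75.2 CPM in every region, and the *Grp* mean in SNr IPs rests on a single library at 10.7 CPM.

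*Tacr3* (chromosome 3, 134829007 to 134934579, plus strand) had 271, 233 and 277 CPM in VTA IPs, 60.5, 49.4 and 77.0 in SNc IPs and 13.9, 6.40 and 11.5 in SNr IPs. No 2 regions overlapped, and the fall from VTA to SNr was the steepest of the 4 well-expressed genes (log2 −4.66, SE 0.27, edgeR adjusted p = 1.66e-09). The Inputs had the same order, at 40.9, 35.8 and 31.4 CPM in VTA, 9.77, 11.98 and 11.4 in SNc and 3.92, 3.01 and 5.69 in SNr. The receptor mRNA was higher in IPs than in Inputs in VTA (log2 2.54, edgeR adjusted p = 5.55e-11) and SNc (log2 2.20, edgeR adjusted p = 1.56e-05). In SNr the difference of 0.98 (SE 0.53) did not pass (edgeR adjusted p = 0.2004), although it did when all 18 libraries shared a fit (edgeR adjusted p = 0.00612). *Tacr3* was 4.19-fold higher in VTA than in SNc IPs (log2 2.07, SE 0.23, edgeR adjusted p = 1.11e-05) and 6.03-fold lower in SNr than in SNc IPs (log2 −2.59, SE 0.25, edgeR adjusted p = 5.46e-06).

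Among the peptides, *Cck* (chromosome 9, 121489824 to 121495694, minus strand) was the most abundant. Its CPM was 163, 204 and 207 in VTA IPs, 88.3, 108 and 114 in SNc IPs and 67.2, 59.0 and 19.2 in SNr IPs. The regions did not overlap, but the SNr libraries spread over a wide range, with replicate 3 well below the other 2. Inputs held 30.1, 31.03 and 28.5 CPM in VTA, 22.1, 26.9 and 17.3 in SNc and 6.10, 3.74 and 7.74 in SNr. *Cck* was higher in IPs than in Inputs by log2 1.92 in SNc (edgeR adjusted p = 1.58e-05), 2.33 in VTA (edgeR adjusted p = 1.78e-10) and 2.72 in SNr (SE 0.47, edgeR adjusted p = 0.00165). Between IPs, it was lower in SNr than in VTA (log2 −1.99, SE 0.30, edgeR adjusted p = 0.000184). VTA over SNc was 0.89 with SE 0.29 and did not pass (edgeR adjusted p = 0.0585), though it passed under 3 of 10 alternatives. SNr against SNc was −1.10 with SE 0.29 (edgeR adjusted p = 0.0352), and that call was lost without SNc replicate 2 (edgeR adjusted p = 0.0855) or 3 (edgeR adjusted p = 0.116).

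*Vip* (chromosome 10, 5639218 to 5647617, plus strand) was rare. VTA IPs held 51, 28 and 55 reads, which are 4.49, 5.91 and 6.69 CPM. The SNc IPs held 1, 15 and 0 reads and the SNr IPs 0, 0 and 1, so all 3 VTA libraries lay above the 6 others. The Inputs held 4 reads in SNc, 3 in SNr and 89 in VTA, of which 47 and 41 came from replicates 2 and 3 and 1 from replicate 1. The VTA IP and Input levels differed by log2 0.89 with SE 0.54 (edgeR adjusted p = 0.187). In SNc and SNr *Vip* did not pass the filter for IP against Input. Over the pooled IPs the ratio of VTA to SNr was 72.7, with a 95% counting interval of 12.8 to 2893 that covers counting error only. The fitted difference between those IPs did not pass (edgeR adjusted p = 0.0517), and it did pass in DESeq2 (adjusted p = 0.0063) and with all 18 libraries in a fit (edgeR adjusted p = 0.0109). VTA over SNc was log2 3.05 with SE 1.50 (edgeR adjusted p = 0.241).

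*Grp* (chromosome 18, 65872820 to 65886596, plus strand) had 30.4, 35.7 and 23.3 CPM in VTA IPs and 5.12, 5.46 and 10.5 CPM in SNc IPs. In SNr IPs it had 1, 55 and 0 reads, so that replicate 2, at 10.7 CPM, carried nearly the whole SNr level and overlapped SNc. Inputs held 3.27, 2.62 and 5.04 CPM in VTA and 2.16, 1.94 and 1.76 in SNc, and the SNr Inputs held 1 read among 29513560 counts. *Grp* was higher in VTA IPs than in Inputs (log2 2.65, SE 0.29, edgeR adjusted p = 1.80e-06). The SNc difference of 1.52 (SE 0.50, edgeR adjusted p = 0.0315) was lost under 6 of 10 alternatives, which were no filter, all 18 libraries in a fit, and leaving out IP replicate 3 or any Input replicate, with edgeR adjusted p between 0.0795 and 0.13. SNr IPs were lower than VTA IPs by log2 −2.98 (SE 0.84, edgeR adjusted p = 0.0282). That value was −7.76 without SNr replicate 2, and the call was lost without SNr replicate 1 (edgeR adjusted p = 0.0746) and in DESeq2 (adjusted p = 0.152). VTA over SNc was 2.10 with SE 0.79 (edgeR adjusted p = 0.111). SNr against SNc was −0.88 (edgeR adjusted p = 0.647), and −5.63 without SNr replicate 2 (edgeR adjusted p = 0.00114).

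Counted over the genes, with the share of all genes tested that were called the same way beside each count, IPs were higher than Inputs for 5 of the 5 genes tested in SNc (all genes, 19.6%), 5 of 6 in VTA (23.5%) and 2 of 4 in SNr (16%). Between IPs, 3 of 6 were higher in VTA than in SNc (3.47%), 4 of 6 were lower in SNr than in SNc (2.98%) and 5 of 6 were lower in SNr than in VTA (3.37%). The median log2 difference over the 6 genes was 1.96, −1.80 and −3.21 in these comparisons, where the median over all 15321 genes tested was −0.08, 0.04 and 0.04. *Vip* passed the filter only through the VTA IPs, so its place in these medians was set by the group where it is high, and it was called in none of the 3. It also entered the VTA test of IP against Input only through the VTA IPs, and was not called there. These comparisons share libraries, and no p was computed for the genes as a list.

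**Figure D2:**
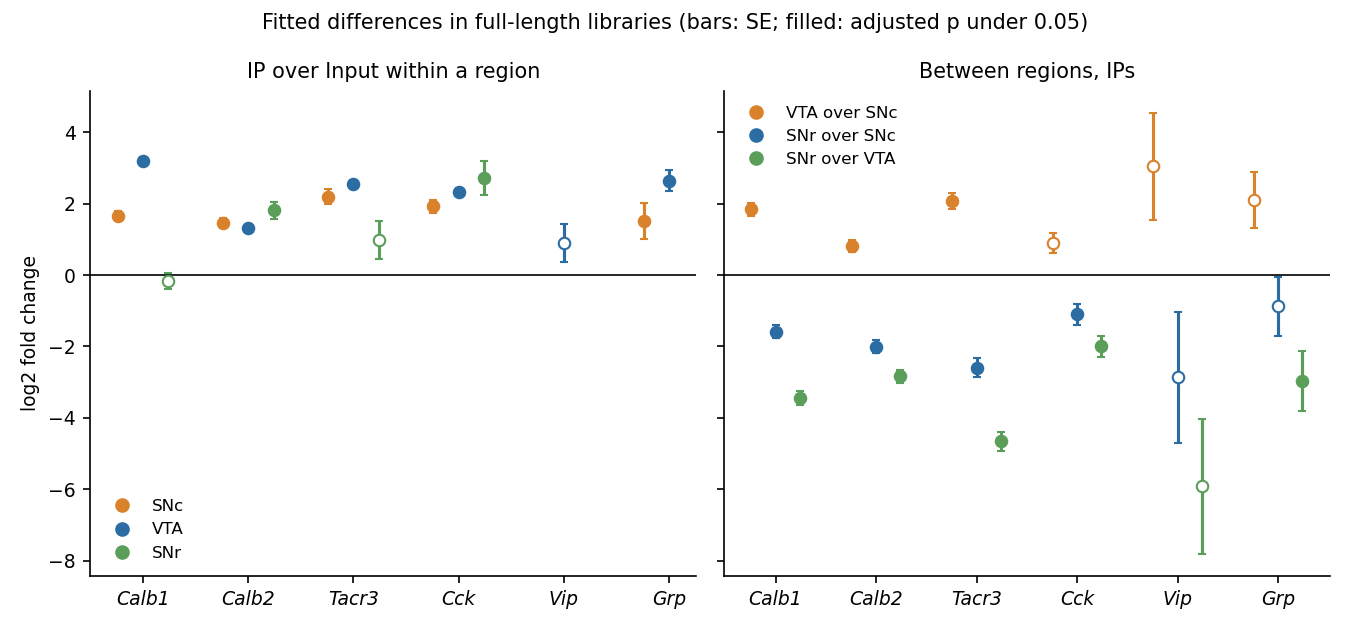
Fitted log2 fold changes (y axis) of each gene for IP over Input within a region (left) and for pairs of regions between IPs (right) in full-length libraries, with SE as bars and filled points where the edgeR adjusted p was under 0.05. Every between-region value has VTA above SNc above SNr, *Calb1* in SNr is the only IP over Input value below 0 (−0.17), and *Vip* and *Grp* have the longest bars between regions.

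Inputs showed which part of the pattern was already in the tissue RNA. *Calb2* and *Tacr3* were higher in VTA than in SNc Inputs, by log2 0.89 (SE 0.10, edgeR adjusted p = 9.45e-07) and 1.67 (SE 0.17, edgeR adjusted p = 8.21e-08), so 2 of the 5 genes tested passed (all genes, 1.83%). *Calb1* (0.26, edgeR adjusted p = 0.221), *Cck* (0.42, edgeR adjusted p = 0.188) and *Grp* (0.89, edgeR adjusted p = 0.343) did not. Against SNr, 4 of 5 were lower in SNr than in SNc (14.2%) and 4 of 5 lower in SNr than in VTA (13.9%), with *Calb1* the gene that was not. *Calb2* was 5.37-fold lower in SNr than in SNc Inputs and 9.91-fold lower than in VTA Inputs. *Tacr3* was 2.78-fold and 8.87-fold lower, and *Cck* 3.97-fold and 5.32-fold lower. For *Grp*, with 1 read in SNr, the pooled ratio was 58.6 for SNc over SNr (95% counting interval 10.2 to 2350) and 109 for VTA over SNr (19.2 to 4347). *Calb1* Inputs differed by log2 0.20 (SE 0.11) between SNr and SNc and by −0.06 (SE 0.11) between SNr and VTA.

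The change of IP enrichment between regions, which is the difference of the IP over Input values, was tested as an interaction. *Calb1* was the gene whose enrichment differed in all 3 pairs. Its enrichment was larger in VTA than in SNc by log2 1.56 (SE 0.22, edgeR adjusted p = 8.01e-05), smaller in SNr than in SNc by −1.86 (SE 0.23, edgeR adjusted p = 2.86e-05) and smaller in SNr than in VTA by −3.42 (SE 0.23, edgeR adjusted p = 2.98e-09). *Tacr3* enrichment was smaller in SNr than in VTA (−1.56, SE 0.34, edgeR adjusted p = 0.00639). It was also smaller in SNr than in SNc (−1.20, SE 0.35, edgeR adjusted p = 0.0377), a call lost in 7 of 15 alternatives (edgeR adjusted p between 0.0523 and 0.145), which left out SNc IP replicate 3, SNr IP replicate 2, any SNc Input, or SNr Input replicate 1 or 3. In counts, 1 of 6 genes was called higher for VTA against SNc (1.80%), 2 of 6 lower for SNr against SNc (3.96%) and 2 of 6 lower for SNr against VTA (1.65%). The enrichment of *Calb2* differed by −0.11 (SE 0.23), 0.32 (SE 0.24) and 0.43 (SE 0.24) and that of *Cck* by 0.45 (SE 0.39), 0.82 (SE 0.42) and 0.37 (SE 0.42), none of which passed, although the SNr against SNc value of *Cck* was 1.20 without SNr IP replicate 3 (edgeR adjusted p = 0.00819). For *Grp* the SNr against SNc value of 4.46 (SE 1.62, edgeR adjusted p = 0.0994) passed under 4 alternatives and was −0.32 without SNr IP replicate 2, which holds 55 of the 56 SNr IP reads. *Vip* did not pass in any pair. For reference, 12 dopaminergic core genes had median differences of −0.29 for VTA against SNc, 1.74 for SNr against SNc and 1.92 for SNr against VTA. The medians of all genes were −0.17, −0.03 and 0.12. In the 2 SNr pairs the *Calb2* and *Cck* values were thus below the core median, and the cause was not tested.

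The UMI libraries add the Cre- control that the full-length libraries used here lack. Cre+ IPs held 32620 to 92936 UMIs (median 50892) and Cre- IPs 17831 to 59442 (median 37686), so rare genes rest on a few UMIs. Cre- IPs were not free of dopaminergic RNA. Mean *Th* in SNc, VTA and SNr was 357, 422 and 102.5 CPM in Cre- IPs and 132, 180 and 55.5 in Cre- Inputs. Mean *Slc6a3* was 155, 168.5 and 58.2 CPM in Cre- IPs and 191, 114 and 53.3 in Cre- Inputs. Cre+ IPs averaged 1503, 3032 and 2808 CPM of *Th*. The source of this Cre- signal was not tested. In VTA *Calb1*, *Calb2* and *Cck* were higher in Cre+ than in Cre- IPs, and in SNc and SNr *Calb2* and *Cck* were. *Tacr3* and *Grp* were called in VTA too, but they passed the filter of 10 UMIs over the 30 IPs only through the Cre+ VTA IPs, which hold 14 of 20 and 20 of 28 of their UMIs, so they were tested because they were high there.

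*Calb1* in VTA IPs stood at 254, 350, 549 and 421 CPM in Cre+ mice, against 17.5 to 159 (median 42.4) in Cre- mice. The groups did not overlap, and the difference was log2 2.55 (SE 0.44, edgeR adjusted p = 5.28e-07). In SNc, Cre+ IPs held 92.0, 31.5, 68.6 and 108 CPM against 0 to 107 (median 10.3), and in SNr 57.7, 18.4, 21.03 and 49.4 against 0 to 61.6 (median 31.6). Both of these overlapped (edgeR adjusted p = 0.313 and 0.975), and in SNr the Cre+ level rested on 7 UMIs in 4 libraries.

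*Calb2* was at 508, 883, 525 and 740 CPM in Cre+ VTA IPs against 111 to 308 (median 210) in Cre- IPs, with no overlap (log2 1.42, SE 0.31, edgeR adjusted p = 0.000261). In SNc the Cre+ IPs held 184, 519, 206 and 398 CPM against 34.8 to 236 (median 125) (log2 1.12, SE 0.35, edgeR adjusted p = 0.0304), and 2 Cre+ libraries lay within the Cre- range. That call was lost without Cre+ replicate 2 (edgeR adjusted p = 0.217) or 4 (edgeR adjusted p = 0.122) and with no filter on low counts (edgeR adjusted p = 0.0985). In SNr the Cre+ IPs held 115, 18.4, 168 and 313 CPM and the 6 Cre- IPs 3 UMIs in all, a pooled ratio of 10.3 with a 95% counting interval of 3.23 to 52.7 (edgeR adjusted p = 0.0014, and 0.136 without Cre+ replicate 4).

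*Tacr3* gave 3, 2, 3 and 6 UMIs (84.6, 33.3, 71.6 and 87.0 CPM) in Cre+ VTA IPs and none in the 6 Cre- VTA IPs. With 3 UMIs over the group as the limit that a count of 0 allows, Cre+ was at least 5.45-fold higher (edgeR adjusted p = 0.00244). In SNc IPs *Tacr3* gave 2 UMIs in Cre+ and 1 in Cre- mice, and in SNr IPs 0 in Cre+ and 3 in Cre- mice, so no difference was detectable at this depth there.

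*Cck* was the member with the most UMIs in Cre+ IPs of all 3 regions. Cre+ IPs held 846, 1400, 693 and 783 CPM in VTA, 368, 551, 458 and 495 in SNc and 259, 258, 252 and 280 in SNr. Cre- IPs ranged over 111 to 318 (median 180), 124 to 348 (median 140) and 0 to 112 (median 33). No region overlapped. The differences were log2 1.99 (SE 0.30, edgeR adjusted p = 7.49e-09) in VTA, 1.40 (SE 0.33, edgeR adjusted p = 0.0013) in SNc and 2.42 (SE 0.51, edgeR adjusted p = 0.000199) in SNr.

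*Grp* gave 0, 10, 1 and 9 UMIs in Cre+ VTA IPs (0, 167, 23.9 and 131 CPM) and 2 in the 6 Cre- VTA IPs, a pooled ratio of 11.7 (95% counting interval 2.83 to 103; edgeR adjusted p = 0.0163). A Cre+ library at 0 overlapped the Cre- range, and the call was lost without Cre+ replicate 2 (edgeR adjusted p = 0.136) or 4 (edgeR adjusted p = 0.0818). In SNc, 6 UMIs in Cre+ and 0 in Cre- IPs put Cre+ at least 2.21-fold higher, without passing the test (edgeR adjusted p = 0.11). In SNr all 10 IPs were at 0. *Vip* gave 1 UMI in the 30 regional IPs, in a Cre- VTA library, and was not tested.

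**Figure D3:**
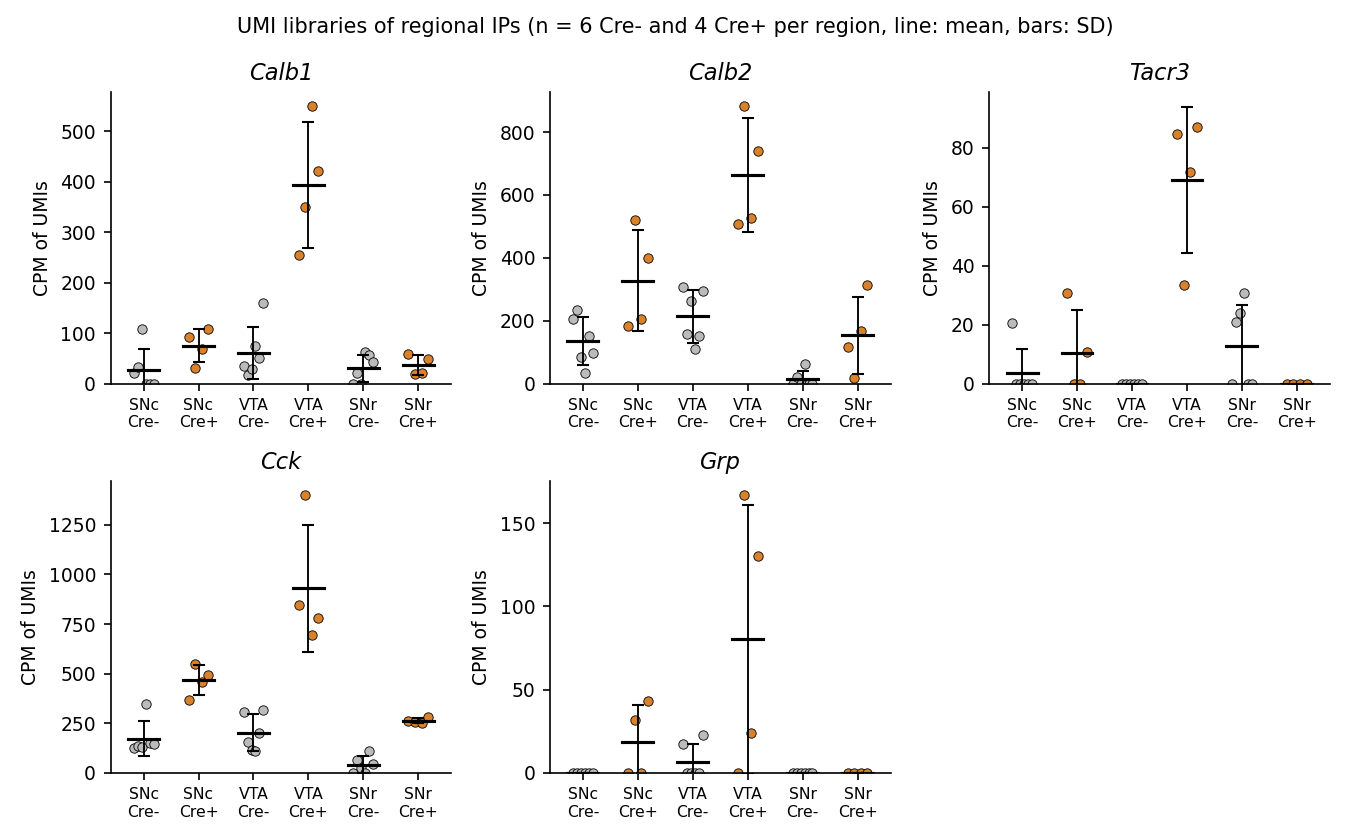
UMI libraries of regional IPs, in CPM of UMIs (y axis, from 0, own scale per gene) for *Calb1*, *Calb2*, *Tacr3*, *Cck* and *Grp*, with Cre- libraries in grey (n = 6) and Cre+ libraries in orange (n = 4), means as lines and SD as bars. *Cck* separates Cre+ from Cre- in all 3 regions, *Calb1* does so in VTA and overlaps in SNr, and the *Grp* level in VTA comes mainly from libraries at 167 and 131 CPM.

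In these tests 2 of 5 genes were higher in Cre+ IPs in SNc (all genes, 2.37%), 5 of 5 in VTA (2.50%) and 2 of 4 in SNr (1.35%). Leaving aside *Tacr3* and *Grp*, whose entry into the test the Cre+ VTA IPs decided, the 3 others were called in VTA, and the 5 of 5 is not read against the share of all genes. Markers of other cells moved the other way. The summed CPM of the 5 oligodendrocyte markers was 566 to 1000 in Cre+ VTA IPs against 3029 to 5046 in Cre- VTA IPs, and that of the 5 astrocyte markers 287 to 433 against 473 to 1159. All 5 genes of each of these lists were detected in both groups, and the part of this difference in the gene values was not tested. The split of calls over all genes depended on the scaling. Of the genes called in SNc, VTA and SNr, 46.3%, 39.9% and 34.4% were higher in Cre+ IPs with median-of-ratios size factors, and 76.5%, 61.7% and 72.7% with TMMwsp, which moved the median of all genes from −0.34, −0.24 and −0.30 to −0.04, 0 and 0.03. Every call of a member in Cre+ against Cre- IPs had the same direction and passed under both scalings.

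Between Cre+ IPs of different regions, *Calb1* was higher in VTA than in SNc by log2 2.38 (SE 0.43, edgeR adjusted p = 4.01e-05), the 1 of 5 genes called (all genes, 0.206%). *Calb2* (1.00, SE 0.31, edgeR adjusted p = 0.147) and *Cck* (1.02, SE 0.30, edgeR adjusted p = 0.0908) did not pass, although no Cre+ *Cck* library of SNc reached the VTA range and DESeq2 called it (adjusted p = 0.0199). In edgeR 0 of the 5 passed between SNr and SNc (0.108%), as in DESeq2 for *Calb2* (adjusted p = 0.145) and *Cck* (adjusted p = 0.13), where their values lay between −0.84 for *Cck* and −3.17 for *Grp*. The unadjusted p was under 0.05 for *Calb2* (0.00327), *Cck* (0.0122) and *Grp* (0.0158), and leaving out SNr replicate 4 brought *Calb2* past the threshold (−1.77, edgeR adjusted p = 0.0422). All 5 were called lower in SNr than in VTA (0.251%), of which *Tacr3* and *Grp* passed the filter only through the VTA group, so that their part in this count is no support. *Calb1* was lower by log2 −3.41 (SE 0.51, edgeR adjusted p = 2.43e-08), *Calb2* by −2.10 (SE 0.35, edgeR adjusted p = 2.12e-06) and *Cck* by −1.86 (SE 0.32, edgeR adjusted p = 4.29e-06). *Tacr3*, at 0 in the 4 SNr IPs, was at least 4.46-fold lower (edgeR adjusted p = 0.0197), and *Grp*, also at 0 there, at least 6.37-fold lower (edgeR adjusted p = 0.00391). The *Tacr3* call was lost in 5 leave-one-out fits, with edgeR adjusted p from 0.0544 to 0.105, without VTA replicate 4 or any SNr replicate, and the *Grp* call without VTA replicate 2 (edgeR adjusted p = 0.053). These Cre+ IPs come from other libraries than the full-length ones, while the labels do not say whether the mice were the same.

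The interaction of genotype with fraction asks whether IP over Input is larger in Cre+ than in Cre- mice. In VTA it was called for *Calb1* (log2 2.65, SE 0.65, edgeR adjusted p = 0.00323), *Cck* (1.79, SE 0.47, edgeR adjusted p = 0.00809) and *Tacr3* (4.98, SE 1.58, edgeR adjusted p = 0.0424), 3 of 5 genes tested (all genes, 1.53%). *Grp*, not called (edgeR adjusted p = 0.109), passed the filter only through the Cre+ VTA IPs. These IPs also hold 14 of the 24 *Tacr3* UMIs, and the others just reach the minimum of 10. In edgeR 0 of 4 passed in SNc (1.11%) and 0 of 3 in SNr (0.848%). At an unadjusted p under 0.05 there were *Calb2* (0.00959) and *Cck* (0.00319) in SNc, and *Calb2* (0.00166) and *Cck* (0.0272) in SNr. DESeq2 called none of the values it adjusted there. With TMMwsp, *Cck* passed in SNc (edgeR adjusted p = 0.0343) and *Calb2* in SNr (edgeR adjusted p = 0.0206), and both passed with total UMIs (edgeR adjusted p = 0.0354 and 0.0211), and leaving out SNc Input Cre+ replicate 4 or SNr IP Cre+ replicate 2 brought them past as well (edgeR adjusted p = 0.0471 and 0.0236). The VTA value of *Cck* did not pass with TMMwsp (edgeR adjusted p = 0.0527), and that of *Tacr3* was lost in 8 of 12 alternatives, with edgeR adjusted p from 0.0511 to 0.0729. These were TMMwsp, no filter, leaving out Cre+ IP replicate 1 or 4 or Cre+ Input replicate 2, 3 or 4, and a fit without 2 Cre- VTA Inputs that held under 10000 UMIs (edgeR adjusted p = 0.059), which was tried after these depths were seen.

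Levels were compared between genes after division by the length of all annotated exons of each, so the order depends on that annotation. In VTA IPs of the full-length libraries the level per kilobase was highest for *Calb2*, at 463 ± 22.7 CPM per kb (SD, n = 3). *Calb1* at 152 ± 8.53 and *Cck* at 147 ± 18.8 CPM per kb followed and overlapped each other, then *Tacr3* at 69.1 ± 6.34, *Grp* at 20.2 ± 4.18 and *Vip* at 1.67 ± 0.328. In SNc IPs the order changed for 2 neighbours, with *Cck* at 79.2 ± 10.3 above *Calb1* at 42.3 ± 4.67 CPM per kb and no overlap. *Calb2* led there too, at 263 ± 27.2 CPM per kb. In SNr IPs *Calb2* at 66.0 ± 16.3 and *Cck* at 37.1 ± 19.7 CPM per kb overlapped, and *Tacr3* at 2.81 ± 1.02 and *Grp* at 2.46 ± 4.12 could not be put in order. The 3′ UMI libraries, used without division by length, gave another order in Cre+ VTA IPs. There *Cck* averaged 930 CPM (693 to 1400), *Calb2* 664 (508 to 883) and *Calb1* 393 (254 to 549).

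Set against *Th* in the same library, the order of VTA and SNc was not kept by every gene. Per 100 CPM of *Th*, *Calb2* stood at 18.9 to 32 CPM in SNc IPs and 19.8 to 24.4 in VTA IPs, and *Cck* at 3.56 to 8.40 and 4.69 to 5.97, so both overlapped with the higher mean in SNc. *Tacr3* stood at 2.43 to 4.95 in SNc and 5.98 to 7.97 in VTA with no overlap. *Calb1* overlapped narrowly, with 8.02 to 17.9 in SNc and 17.7 to 22.2 in VTA. SNr IPs were below both regions for these 4 genes, at 4.60 to 5.41 for *Calb2*, 1.07 to 2.55 for *Cck*, 0.253 to 0.641 for *Tacr3* and 2.56 to 3.50 for *Calb1*. *Th* itself was higher in VTA than in SNc IPs (log2 1.02, SE 0.20, edgeR adjusted p = 0.00266), as were 6 of 12 dopaminergic core genes in all (all genes, 3.47%). *Slc6a3* overlapped between these IPs, at 2867 to 3104 CPM in SNc and 2508 to 2916 in VTA. Levels relative to *Slc6a3* were not computed, so the lost order is shown for *Th* as the base only.

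Other genes used as markers of VTA and dorsal-tier neurons did not all move with the 6 genes. Of 9 other VTA and dorsal-tier markers, 3 were higher in VTA than in SNc IPs, against 3.47% of all genes, namely *Lpl*, lipoprotein lipase (log2 4.85, SE 0.53, edgeR adjusted p = 1.11e-05), *Neurod6*, a transcription factor (3.88, SE 0.90, edgeR adjusted p = 0.00979), and *Cyp26b1*, which breaks down retinoic acid (2.02, SE 0.47, edgeR adjusted p = 0.0103). *Slc17a6*, the vesicular glutamate transporter, was lower (−1.14, SE 0.26, edgeR adjusted p = 0.00875), as were 5.06% of all genes. In SNr against VTA IPs 7 of the 9 were lower (all genes, 3.37%), with a median of −3.36 that stays the same with *Crhbp*, at 0 in SNr, set to its bound of at least 23.3-fold lower. In SNr against SNc IPs *Slc17a6* (−3.20) and *Adcyap1* (−3.54), which encodes the peptide PACAP, were lower and *Lpl* was higher (2.05, edgeR adjusted p = 0.0254). Of all genes, 2.98% were lower and 2.12% higher there. In VTA IPs against Inputs the list split, with 4 higher and 4 lower, where 23.5% and 25.6% of all genes were. *Slc17a6* (−2.12) and *Nts*, neurotensin (−3.46), were lower and *Lpl* (2.96) and *Neurod6* (2.88) higher. None of the 6 genes was called lower in IPs than in Inputs. In the UMI series the summed CPM of the 9 others was 113 to 174 in Cre+ VTA IPs. It was 257 to 525 in Cre- VTA IPs, with 6 and 7 of the 9 detected in the Cre+ and Cre- group. Which cells this RNA came from was not tested.

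Ventral-tier markers went the opposite way in SNr. Of 5, 4 were higher in SNr than in VTA IPs (all genes, 7.19% higher), among them *Aldh1a7* (log2 1.76, SE 0.21, edgeR adjusted p = 2.40e-05) and *Aldh1a1* (0.66, SE 0.13, edgeR adjusted p = 0.00278), both aldehyde dehydrogenases, and *Anxa1*, annexin A1 (0.92, SE 0.20, edgeR adjusted p = 0.00548). All but *Ndnf* were also higher in SNr than in SNc IPs (all genes, 2.12%), with a median of 1.10. The study named these 4 genes in its own comparison of SNr and SNc IPs, so their direction is not independent evidence. Between VTA and SNc IPs 1 of the 5 passed (all genes, 3.47% higher), *Aldh1a1* at 0.44 (edgeR adjusted p = 0.0443).

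**Figure D4:**
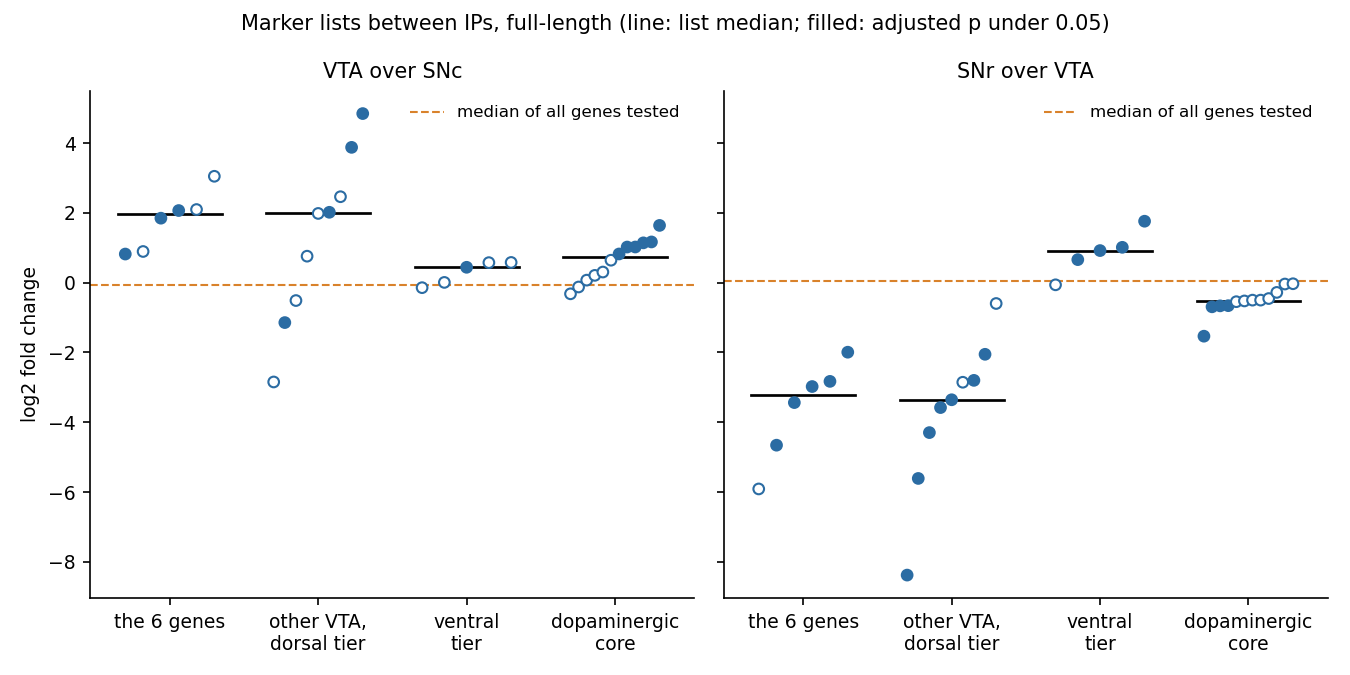
Fitted log2 fold change (y axis) of single genes between full-length IPs, for VTA over SNc (left) and SNr over VTA (right), by list, with filled points where the edgeR adjusted p was under 0.05, the list median as a black line and the median of all genes as a dashed line. In SNr over VTA the 6 genes have a median of −3.21 and the ventral-tier markers 0.92, and the dopaminergic core lies between, at −0.51.

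The ligands and receptors that pair with these peptides and with *Tacr3* were mostly near the floor. Of 12 genes, 7 were tested between IPs of the full-length libraries, and none passed between VTA and SNc. The ligand of *Tacr3*, *Tac2*, had 1.78 ± 0.80 CPM in SNc IPs, 0.18 ± 0.30 in VTA and 0.78 ± 1.35 in SNr (SD, n = 3). *Cckar* stood at 2.20 ± 2.33, 2.54 ± 2.68 and 2.85 ± 2.91 CPM in SNc, VTA and SNr IPs. *Cckbr*, the other cholecystokinin receptor, stood at 4.69 ± 1.62, 1.51 ± 0.74 and 4.37 ± 5.92 CPM and was lower in VTA IPs than in Inputs (log2 −2.91, SE 0.48, edgeR adjusted p = 0.000107).

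*Vipr2*, a receptor for vasoactive intestinal peptide, was the partner gene that was higher in VTA IPs than in Inputs (log2 1.61, SE 0.46, edgeR adjusted p = 0.00822), at 7.42 ± 2.63 CPM. Its enrichment was larger in VTA than in SNc (2.45, SE 0.69, edgeR adjusted p = 0.031), while the IPs differed by −0.05 (SE 0.65, edgeR adjusted p = 0.982), with 7.79 ± 2.65 CPM in SNc. *Vipr1* had no read in VTA IPs. *Adcyap1r1*, the PACAP receptor, was abundant in IPs, at 113 ± 10.7, 167 ± 17.3 and 77.4 ± 14.5 CPM in SNc, VTA and SNr, yet lower there than in Inputs in all 3 regions, by −1.11, −0.60 and −1.53 (edgeR adjusted p at most 5.89e-05). It was lower in SNr than in VTA IPs (−1.12, SE 0.19, edgeR adjusted p = 0.000501). *Tacr1*, the substance P receptor, was lower in SNr than in VTA IPs too (−1.86, SE 0.57, edgeR adjusted p = 0.044), and *Tac1*, which encodes substance P, was higher (2.65, SE 0.59, edgeR adjusted p = 0.00591), with 11.1 to 61.0 CPM in SNr IPs.

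For gastrin-releasing peptide, the receptor *Grpr* had 16, 58 and 6 reads over the SNc, VTA and SNr IPs. *Nmb* and *Nmbr*, a related peptide and its receptor, had 1 and 4 reads over the VTA IPs and 0 over the SNr IPs, and *Tacr2* had 1 read over the VTA IPs.

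Genes that process and pack peptides were higher in IPs than in Inputs for 7 of 10 in SNc (all genes, 19.6%), 8 of 10 in VTA (23.5%) and 6 of 10 in SNr (16%). In VTA *Scg2*, a granin (log2 2.17), and *Pcsk1*, a prohormone convertase (1.96), led, and *Cpe*, carboxypeptidase E, was lower (−0.44). In SNr against VTA IPs 6 of 10 were lower (all genes, 3.37%), with *Pcsk2* at −1.09 (SE 0.15, edgeR adjusted p = 6.90e-05) and *Scg2* at −1.01 (SE 0.16, edgeR adjusted p = 0.000357). *Cck* stood at −1.99 in that comparison. Of 10 other genes for EF-hand calcium buffers and sensors, 7 were tested, and in VTA IPs against Inputs 3 were higher, as *Hpcal4* (1.64) and *Vsnl1* (1.32), and 3 lower, as parvalbumin, *Pvalb* (−4.23), a marker of GABAergic neurons. That is beside 23.5% of all genes higher and 25.6% lower. *Pvalb* was higher in SNr than in VTA IPs (2.35, SE 0.47, edgeR adjusted p = 0.00273), against −3.44 for *Calb1* and −2.83 for *Calb2*.

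As a description, the genes most like each member over the 18 full-length libraries were found by Pearson's r of log2 CPM among 9907 genes with a mean log2 CPM of at least 3. Libraries of a fraction and region share composition, so high values are common and no p is given. *Calb2* was most like *Ahi1* (0.983), *Pnck* (0.970) and *Ttc3* (0.967), and *Tacr3* most like *Ahi1* (0.973), *Amigo2* (0.955) and *Calb2* itself (0.944). *Cck* was most like *Cyp51* (0.981), *Nrsn2* (0.980) and *Nap1l5* (0.974). *Calb1*, whose Inputs did not follow the regions, had lower values, with *Sdc2* (0.938), *Flrt3* (0.937) and *Pcsk2* (0.928), as did *Grp* with *Lypd1* (0.939), *Jmjd4* (0.932) and *Pcdh19* (0.927). *Vip*, with few reads, reached 0.799 with *Stk16*, 0.795 with *Scn9a* and 0.788 with *Zmat1*. Among the members, *Calb2* with *Tacr3* (0.944) and with *Cck* (0.932) were the closest pairs, and *Calb1* reached 0.866 with *Tacr3* and 0.759 with *Calb2*.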

How the data were processed

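Midbrain RiboTag IP and Input libraries were used, 18 full-length and 60 with UMIs. Values are the counts per gene that the authors deposited, unnormalized. Per the study's methods, the authors aligned the UMI reads with STAR to GRCm38 and GENCODE vM10 and collapsed UMIs, and for full-length libraries trimmed read 2, removed rRNA with Bowtie2, aligned with STAR 2.6.7a and counted exon reads with featureCounts 1.6. Full-length duplicates were not collapsed, and the strand setting is not given in the sources used here. From these counts, CPM were computed on gene rows (5 rows of the UMI table name no gene and hold 0.000205% of counts), and edgeR 4.0.16 (R 4.3.3) quasi-likelihood tests, two-sided, were fitted on all genes past a filter with Benjamini-Hochberg adjustment at 0.05. Full-length libraries used TMM and filterByExpr, and UMI libraries median-of-ratios size factors and at least 10 UMIs over a fit. SE was derived from the fitted log2 fold change and the F statistic. Between-region tests fit the IPs or the Inputs of the 3 regions together. Coordinates and exon lengths come from GENCODE vM21 on GRCm38, a release the authors did not use. Counting intervals are exact at 95% and cover counting error only, and 3 counts are the limit that a count of 0 allows. Depth ran from 3059148 to 15762443 counts in full-length and 3606 to 380689 in UMI libraries.

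The 6 genes and all gene lists were chosen with earlier results of these data known. Genes named are the 6, up to 4 per list with the smallest p, detected partner genes, and the 3 most correlated genes per member. Alternatives were DESeq2 1.42.0 size factors and Wald test, TMMwsp, total UMIs, no filter, a fit of all 18 full-length libraries, and each library left out. Leaving out libraries under 10000 UMIs was added after depths were seen. Scripts were tested on simulated data. Replicates of a group were all distinct. Midbrain synaptosome libraries appear in the closing section only, and the other libraries were not used here.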

Additional observations from a re-analysis of the deposited data

Results flagged for a closer look

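Of 32 groups of 4 to 10 libraries with at least 10 UMIs of a member, 2 held a library set apart from the others, and chance gives about 1 in 20. *Calb2* in Cre+ SNc Inputs of the UMI series had a library at 255 CPM beside 104, 113 and 127. *Cck* in Cre- SNc IPs had a library at 348 CPM beside 124 to 152.

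The IP enrichment of *Calb1* differed between every pair of regions by the interaction test, by log2 1.56 for VTA against SNc, −1.86 for SNr against SNc and −3.42 for SNr against VTA. That of *Tacr3* differed for SNr against SNc (−1.20) and for SNr against VTA (−1.56).

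Midbrain synaptosome IPs of the same age, which no comparison above uses, held 137 CPM more *Calb1* in Cre+ than in Cre- mice (237 ± 46.5 against 100.7 ± 85.8 CPM, SD, n = 8 and 6, exact two-sided permutation p = 0.00466, 0.028 adjusted over the 6 genes). Of the 8 Cre+ libraries, 2 lay above the highest Cre- library, and Cre- libraries were shallower, with a median of 19421 UMIs against 80003. Markers of other cells differed between the same libraries, with summed levels of 975.4 to 2259 CPM in Cre+ against 3307 to 4682 CPM in Cre- mice for 5 oligodendrocyte markers and 244 to 521 against 693 to 847 CPM for 5 astrocyte markers, all detected in both groups, and their part in the *Calb1* difference was not tested. The other 5 genes did not pass there, with *Calb2* at 713 against 701 CPM and *Cck* at 877 against 865 CPM (exact permutation p = 0.905 and 0.934). In these libraries *Th* averaged 3168 CPM in Cre+ and 2753 in Cre- IPs, with 1201 in Cre- Inputs. For *Slc6a3* the means were 1031, 317 and 288 CPM. *Th* was thus also alike in both genotypes, so a flat value does not show that Cre-dependent RNA was absent.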

How the results depend on the processing

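No paired analysis was possible because the labels give no mouse or replicate number, and numbers used here follow accession order. Of 1173 alternative values of the 6 genes, 1097 kept direction and side of the threshold, 38 lost a call, 22 gained one and 16 changed sign, none of which was called before. Counts of genes called over the whole tables moved by over 1.5 times in 56 of 232 alternatives, and the cause was not tested. A fit of all 18 full-length libraries called 3151, 2569 and 4189 genes between IPs (VTA against SNc, SNr against SNc, SNr against VTA, here and below; 1307, 781 and 1619 in the fits reported) and 78, 1197 and 1339 between Inputs (828, 4443 and 4478). DESeq2's Wald test called 1219 between SNr and SNc IPs, 1559 for the enrichment of SNr against VTA, 34 and 17 between UMI Cre+ IPs of VTA or SNr against SNc (62 and 35) and 269 for genotype by fraction in VTA (415). With no filter, 370 were called for Cre+ against Cre- in SNc (572), 34 for UMI VTA against SNc and 276 for genotype by fraction in VTA, where TMMwsp gave 251.

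Leaving out a library at a time, counts ran from 3806 to 6846 (SNc), 5859 to 7605 (VTA) and 2636 to 5649 (SNr) for IP against Input, from 600 to 1930, 279 to 1133 and 907 to 1733 between IPs, from 489 to 842, 3594 to 4051 and 3632 to 4208 between Inputs, and from 722 to 2270, 698 to 2019 and 674 to 1431 for enrichment. In UMI libraries they ran from 341 to 523, 459 to 595 and 258 to 404 for Cre+ against Cre- in SNc, VTA and SNr, from 24 to 81, 21 to 41 and 43 to 92 between Cre+ IPs, and from 190 to 264, 295 to 385 and 158 to 252 for genotype by fraction. Beside the splits for Cre+ against Cre- given above, TMMwsp moved the share of higher calls from 37.1% to 25.9% for UMI VTA against SNc, from 65.7% to 53.3% for SNr against SNc, and from 50% to 78.9% (SNc) and 39.6% to 78.2% (SNr) for genotype by fraction. DESeq2 size factors moved it from 45.5% to 56.7% for the full-length enrichment of SNr against SNc.

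Values that changed sign, all without a call, ran over the left-out libraries from −0.41 to 0.018 for *Calb1* in SNr IP against Input, −0.18 to 0.12 (0.038 without SNr Input replicate 1) for *Calb1* Inputs of SNr against VTA, −0.15 to 0.30 (−0.12 without SNr Cre+ replicate 1) for *Calb1* in SNr Cre+ against Cre- IPs, and −0.21 to 0.037 for *Calb2* enrichment of VTA against SNc. *Vip* ran from −5.30 to 0.38 for SNr against SNc IPs, −1.65 to 2.33 for enrichment of VTA against SNc and −5.18 to 0.52 for that of SNr against SNc, the upper ends being without SNc IP replicate 2. *Grp* enrichment ran from −0.32 to 6.31 for SNr against SNc and −1.51 to 5.08 for SNr against VTA, the lower ends being without SNr IP replicate 2. *Tacr3* for genotype by fraction in SNc ran from −0.77 to 0.32, with 0.28 and 0.15 without IP Cre+ replicate 2 or 3, and was 0.087 with TMMwsp and 0.049 with total UMIs. Depth limits *Vip*, *Grp* and, in UMI libraries, *Tacr3*, and DESeq2 gave no adjusted p for 18 values of these genes.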
